A study of Mus musculus with 9 samples.

Results

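Cell cycle and DNA replication genes were followed in mouse gastrocnemius, a calf muscle, through hindlimb unloading and the first day of reloading. The set holds 40 genes of the 55487 in the count table, listed by symbol for their known roles. The choice was made with earlier results of these data known. It comprises 10 cyclins, kinases and E2F factors of G1, 10 origin licensing and helicase genes, 5 genes of nucleotide supply and the replication clamp, 14 genes of G2 and mitosis, and Rgcc. The question put to them was whether expression of genes used by dividing cells was already raised after 1 day of reloading.

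The labels give wild-type C57BL/6 males, whereas the published account gives the substrain C57BL/6J and names females for the procedure, and no age was given in the sources used here. The 4 Control libraries are from mice that stayed in conventional cages. The 2 Unloading libraries are from mice that had the hindquarters lifted by the tail for 10 days, so that the hind legs bore no weight. The 3 Reloading libraries are from mice unloaded in the same way that then walked freely for 1 day, a time course given by the labels and the methods. Polyadenylated RNA of the whole muscle was sequenced, so fewer cells of a type and less RNA per cell cannot be told apart. The labels do not say whether each library came from a separate animal, so p-values measure the spread between these libraries.

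A resting cell enters the cycle when growth signals raise D-type cyclins, which activate CDK4 and CDK6. These kinases and then cyclin E with CDK2 release E2F factors from the retinoblastoma proteins, and E2F raises the genes of DNA synthesis. Before replication, CDC6 and CDT1 load the MCM helicase on origins, and CDC45 with the GINS complex starts it. Cyclin A, cyclin B and CDK1 then bring the cell to mitosis, where Aurora and Polo-like kinases and motor proteins part the chromosomes. Muscle fibres are postmitotic, and satellite cells, the resident stem cells, are largely quiescent in resting muscle. Cyclin D3, Rrm1 and several others are also expressed outside dividing cells, so a transcript of this set is not by itself a dividing cell.

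The libraries held between 9252443 and 19612101 read pairs in genes, and levels are given as CPM, read pairs of a gene per 1000000 of the library. Library sizes were first corrected for composition by TMM, the trimmed mean of M-values of edgeR. A single read pair was worth between 0.0546 and 0.113 CPM. Control 2 and Reloading 1 stood apart with skin transcripts, since the 14 skin markers summed to 346 and 159 CPM there and to between 12.4 and 18.3 CPM in the other 7 libraries. The muscle label matched its markers, as all 12 skeletal muscle fibre markers were tested and summed to at least 142943 CPM in every library. Mitochondrial genes took between 9.36% and 10.6% of the counts in Control and Unloading and between 6.49% and 6.75% in Reloading. Relative to library totals the median of all tested genes lay 0.27 higher on the log2 scale in Reloading than in Unloading and 0.25 higher than in Control, and TMM brought both medians to 0.03 and 0.01.

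The promoters of the members whose changes had the largest log2 fold changes were read first, because E2F sites and the CHR and CCAAT elements are known from promoters of cell cycle genes. Of the 40 members, 33 had a promoter in the RefSeq table of build GRCm38.p6, with 36 promoters of 300 bases in all. Each promoter holds 250 bases before the start and 50 after it. Ccnd1, Ccnd2, Ccne2, Ccna2, Aurkb, Gins1 and Mcm4 had no entry. The 150 bases before the start are shown for Mcm6 and Rgcc, which rose on reloading, and for Rrm1, which fell, each along the strand of the gene, with matches on either strand in capitals.
Mcm6: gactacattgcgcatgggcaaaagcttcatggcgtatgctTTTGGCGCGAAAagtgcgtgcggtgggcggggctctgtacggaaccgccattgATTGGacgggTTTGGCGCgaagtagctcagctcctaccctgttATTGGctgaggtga
Rgcc: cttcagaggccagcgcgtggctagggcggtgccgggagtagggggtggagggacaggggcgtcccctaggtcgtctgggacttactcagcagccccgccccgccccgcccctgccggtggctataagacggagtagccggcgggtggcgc
Rrm1: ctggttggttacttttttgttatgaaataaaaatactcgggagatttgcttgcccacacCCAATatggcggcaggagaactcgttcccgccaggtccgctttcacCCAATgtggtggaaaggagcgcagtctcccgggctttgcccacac

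The Mcm6 stretch lies at chr1:128359706-128359855 on the minus strand, Rgcc at chr14:79301636-79301785 on the minus strand and Rrm1 at chr7:102441545-102441694 on the plus strand. Searched on both strands were the E2F forms TTTCGCGC and TTTGGCGC, the CHR element TTTGAA and the CCAAT box CCAAT. Mcm6 held 5 matches, which were 3 of the E2F forms, with an overlapping pair on opposite strands, and 2 CCAAT boxes. Rrm1 held 2 CCAAT boxes, and Rgcc held none of the 4 motifs. Either E2F form was found in 6 of the 36 member promoters (16.7%), against 0.813% of 32851 promoters of the same length. The CHR element was in 36.1% of member promoters against 17.9% of all, and the CCAAT box in 69.4% against 37.4%. These are matches of letters and were not measured as binding.

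The other members with an E2F form in the promoter were Cdk1, Cdt1, Mcm3, Mcm5 and Mcm7, shown with the form in capitals to set beside the values of the MCM genes and Cdk1 given with the results.
Cdk1: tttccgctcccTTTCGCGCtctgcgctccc
Cdt1: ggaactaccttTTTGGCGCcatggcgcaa
Mcm3: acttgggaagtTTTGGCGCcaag
Mcm5: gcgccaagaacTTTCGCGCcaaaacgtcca
Mcm7: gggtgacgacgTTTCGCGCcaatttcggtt
These windows lie at chr10:69353025-69353054 on the minus strand for Cdk1, chr8:122568036-122568064 on the plus strand for Cdt1 and chr1:20820263-20820285 on the minus strand for Mcm3. Those of Mcm5 and Mcm7 lie at chr8:75109345-75109374 on the plus strand and chr5:138171849-138171878 on the minus strand. In Mcm5 the other E2F form overlaps the form shown, on the opposite strand. The forms of Cdt1, Mcm3 and Mcm7 begin after the start, at bases 33, 39 and 17, and those of Cdk1 and Mcm5 lie before it.

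Against Unloading, 6 of the 9 tested G1 members and 5 of the 9 tested licensing members rose 1 day after reloading, among them Ccnd1, Ccnd2, Mcm6 and Mcm5, and Rgcc rose by a fold close to that of Ccnd1. Genes of G2 and mitosis had so few reads that 9 of the 14 could not be tested. Of the 29 members that passed the filter on low counts, 16 rose and 2 fell in Reloading against Unloading by edgeR's quasi-likelihood test with Benjamini-Hochberg adjustment over 14851 genes at 0.05. Of all tested genes, 18.5% were called higher and 19% lower in that comparison. The median log2 fold change of the 29 was 0.66, against 0.03 over all tested genes. E2f8, Cdt1, Tyms, Top2a and Ccna2 passed the filter through Reloading libraries only, and among the other 24 there were 13 that rose and 2 that fell, with a median of 0.51. By role this left 5 of 8 G1 members, 4 of 8 licensing members and 2 of 3 mitosis members that rose. Of these mitosis members, Mki67 reached the filter's cutoff in 3 Reloading libraries, 1 Control library and 0 Unloading libraries. Mki67 thus also depended on Reloading to pass, and is still counted here. Scaled by library totals alone, 20 members rose and 0 fell, the 2 falls no longer being past the threshold. That scaling called 6340 of the 14851 tested genes, of which 5250 were higher.

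Against Control, 12 members rose and 3 fell in Reloading, where 22.1% of all tested genes were called higher and 21.3% lower. The median log2 fold change of the 29 was 0.54, against 0.01 over all tested genes, and without the 5 members named above 9 rose and 3 fell with a median of 0.33. By library totals alone 21 rose and 1 fell, where 7512 of the 14851 tested genes were called and 6028 of them were higher. This comparison and the previous one share the Reloading libraries and are therefore not independent. In Unloading against Control 0 members rose and 1 fell, where 4.4% of all tested genes were called higher and 5.5% lower. DESeq2's Wald test gave 0 higher and 2 lower there, where 1339 of the 14851 tested genes were called and 618 of them were higher.

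**Figure D1:**
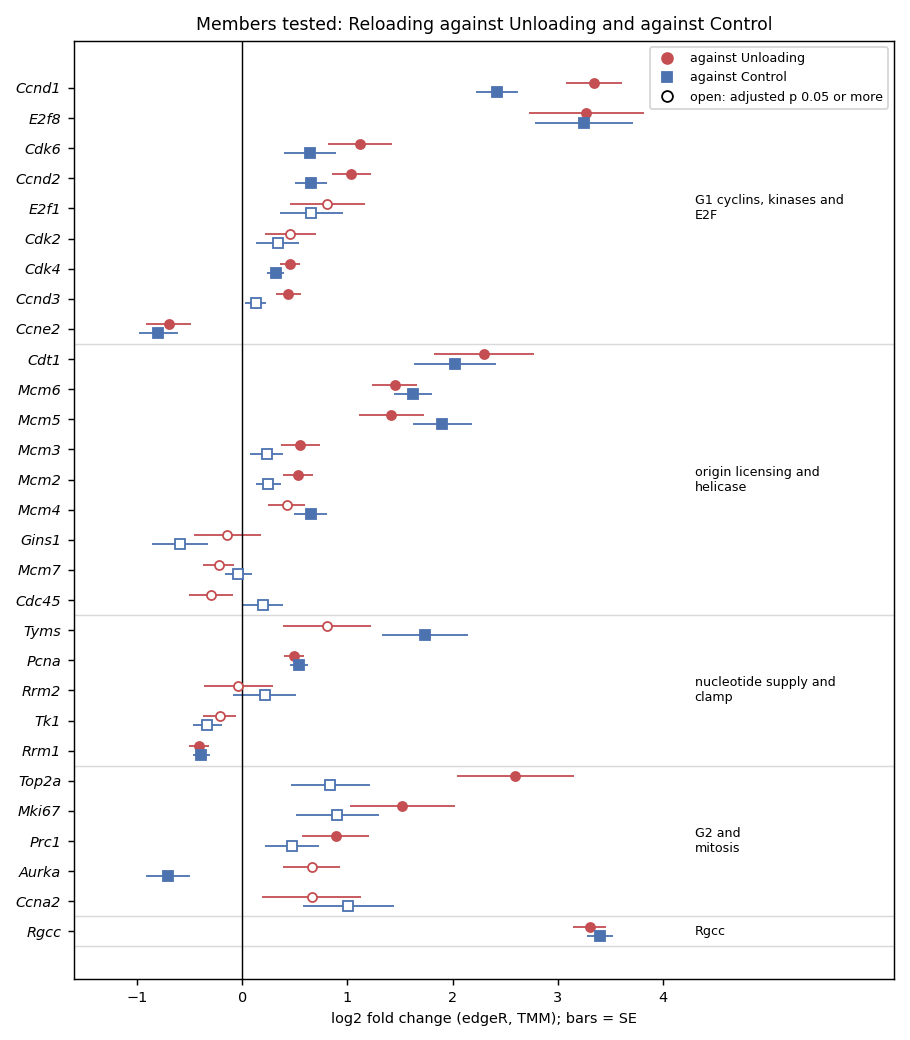
Log2 fold change of the 29 tested members, by role, in Reloading against Unloading (red circles) and against Control (blue squares), with bars for the SE. Filled symbols have an adjusted p under 0.05, and Ccnd1, E2f8 and Rgcc lie furthest to the right at 3.27 to 3.34 against Unloading, with the filled circles of Ccne2 and Rrm1 left of 0. E2f8 passed the filter through Reloading libraries only.

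Ccnd1, which encodes cyclin D1, the growth-factor-induced partner of CDK4 and CDK6, was the member with the largest change against Unloading. It lies at chr7:144929931-144939925 (ENSMUSG00000070348). Ccnd1 was at 2.82, 4.23, 3.43 and 2.49 CPM in Control 1 to 4, at 1.35 and 2.02 CPM in Unloading 1 and 2, and at 21.8, 18.2 and 12.9 CPM in Reloading 1 to 3. Every Reloading library was above every other library, and both Unloading libraries were below all Control libraries. The change was 10.1-fold against Unloading (log2 3.34, SE 0.27, adjusted p = 4.04e-07) and 5.35-fold against Control (log2 2.42, adjusted p = 2.44e-07). Unloading against Control gave a log2 fold change of -0.92 (adjusted p = 0.0663). Of the Ccnd1 exon bases 23.4% lie opposite those of LTO1, and the counting ignored strand, so reads of the pair are not separable there. LTO1 differed by 0.20 on the log2 scale between Reloading and Unloading. The other members with over 10% of exon bases shared with a gene on the opposite strand were Cdk4 (19.7%), Ccne2 (17.4%), Ccna2 (12.5%), E2f8 (11.2%) and Prc1 (11.1%).

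The other D-type cyclins moved less. Ccnd2, cyclin D2, was at 9.47, 9.04, 10.9 and 8.15 CPM in Control, 6.21 and 8.09 CPM in Unloading and 18.7, 13.5 and 12.5 CPM in Reloading. Ccnd3, cyclin D3, which is also kept in differentiated muscle, was at 11.5, 13.6, 12.4 and 11.4 CPM in Control, 9.88 and 9.89 CPM in Unloading and 14.0, 13.0 and 13.2 CPM in Reloading. For Ccnd2 the Reloading libraries lay above all others, and for Ccnd3 they overlapped Control. Ccnd2 rose 2.05-fold against Unloading (adjusted p = 0.000477) and 1.58-fold against Control (adjusted p = 0.00249), and Ccnd3 rose 1.35-fold against Unloading (adjusted p = 0.00897) and differed by 0.13 on the log2 scale from Control (adjusted p = 0.317).

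The kinases that cyclin D activates rose too. Cdk4 was at 19.1, 19.1, 19.0 and 18.3 CPM in Control, 18.3 and 16.2 CPM in Unloading and 23.8, 23.9 and 23.0 CPM in Reloading, without overlap of Reloading and the rest. It rose 1.37-fold against Unloading (adjusted p = 0.00194) and 1.25-fold against Control (adjusted p = 0.00507). Cdk6 was at 1.58, 1.41, 2.86 and 1.80 CPM in Control, 1.57 and 1.26 CPM in Unloading and 2.98, 3.54 and 2.65 CPM in Reloading, where Control 3 lay inside the Reloading range. Its rise was 2.18-fold against Unloading (adjusted p = 0.00894) and 1.56-fold against Control (adjusted p = 0.0446), and the second call was lost in 10 of 18 alternatives. Cdk2, the kinase of cyclins E and A, had means of 3.60 ± 1.04, 3.39 ± 0.391 and 4.65 ± 0.746 CPM in Control, Unloading and Reloading (n = 4, 2 and 3, SD), and passed the threshold in none of the 3 comparisons.

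Of the E-type cyclins, Ccne2 was tested and fell. Ccne2, cyclin E2, was at 7.67, 5.47, 7.79 and 9.78 CPM in Control, 6.14 and 8.09 CPM in Unloading and 3.87, 4.27 and 5.03 CPM in Reloading, so that every Reloading library was below all others. It fell by 0.70 on the log2 scale against Unloading (SE 0.21, adjusted p = 0.0176) and by 0.80 against Control (adjusted p = 0.00287). By library totals the first value was -0.45 (adjusted p = 0.0934). Ccne1, cyclin E1, did not pass the filter, with 2, 4, 4 and 3 read pairs in Control, 2 and 5 in Unloading and 7, 0 and 0 in Reloading. A count of 0 allows up to 3 read pairs, or 0.216 CPM in Reloading 2 and 0.198 CPM in Reloading 3, for counting error only.

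Of the E2F factors, E2f1 is an activator of the genes of DNA synthesis and E2f8 an atypical, repressive member that is itself induced late in G1. E2f8 (chr7:48866429-48881596) had 1, 3, 3 and 2 read pairs in Control, 3 and 3 in Unloading and 32, 32 and 14 in Reloading. These few reads gave 2.58, 2.31 and 0.927 CPM in Reloading against at most 0.249 CPM elsewhere. The log2 fold change was 3.27 (SE 0.55, adjusted p = 0.000303) against Unloading and 3.25 (SE 0.46, adjusted p = 4.91e-05) against Control. E2f8 passed the filter through Reloading libraries only, so it was tested because it was high there. E2f1 was at 0.789, 0.995, 1.29 and 1.03 CPM in Control, 0.749 and 1.09 CPM in Unloading and 1.77, 2.17 and 1.06 CPM in Reloading, with Reloading 3 among the others, and had an adjusted p of 0.084 against Unloading and 0.0906 against Control.

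**Figure D2:**
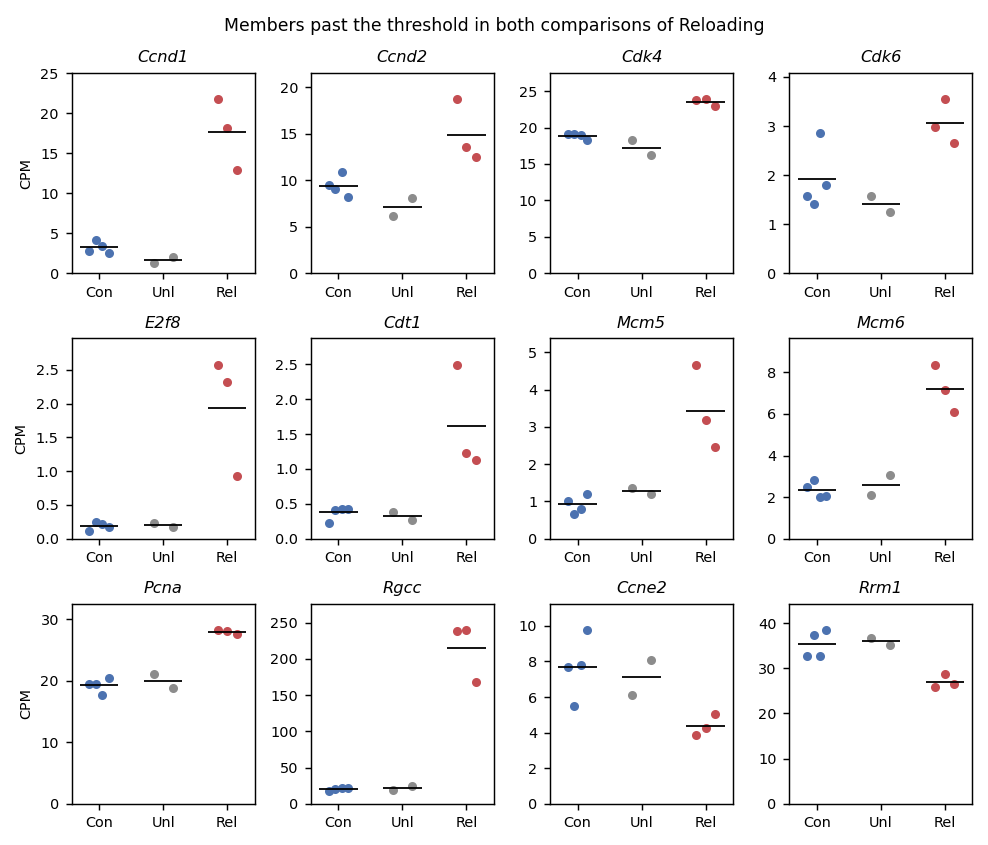
CPM per library of the 12 members past the threshold both against Unloading and against Control, with a line at the mean of each group (Con, Control; Unl, Unloading; Rel, Reloading). The 3 Reloading points of Ccnd1 lie between 12.9 and 21.8 CPM and those of Rgcc between 168 and 240 CPM, above all others, while those of Ccne2 and Rrm1 lie lowest.

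Among the licensing genes, Cdt1, the factor that brings the MCM helicase to origins, had few reads. It had 2, 5, 6 and 5 read pairs in Control, 5 and 5 in Unloading and 31, 17 and 17 in Reloading. In CPM the Reloading libraries were at 2.50, 1.23 and 1.13 and all others at or below 0.429. Cdt1 rose 4.91-fold against Unloading (log2 2.29, SE 0.48, adjusted p = 0.00158) and 4.06-fold against Control (adjusted p = 0.000692). As for E2f8, Cdt1 passed the filter through Reloading libraries only. Cdc6, its partner in loading, had too few reads to test, with 1, 6, 2 and 2 read pairs in Control, 2 and 9 in Unloading and 5, 8 and 9 in Reloading.

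Mcm2 to Mcm7 encode the subunits of the replicative helicase, and they did not move alike. Mcm6 was at 2.48, 2.82, 2.00 and 2.06 CPM in Control, 2.10 and 3.06 CPM in Unloading and 8.38, 7.16 and 6.09 CPM in Reloading. Mcm5 was at 1.01, 0.663, 0.786 and 1.20 CPM in Control, 1.35 and 1.20 CPM in Unloading and 4.67, 3.18 and 2.45 CPM in Reloading. In both, all Reloading libraries lay above the rest. Mcm6 rose 2.73-fold against Unloading (log2 1.45, SE 0.21, adjusted p = 0.000109) and 3.08-fold against Control, and Mcm5 rose 2.67-fold (log2 1.42, SE 0.31, adjusted p = 0.00235) and 3.73-fold.

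The remaining subunits had smaller log2 fold changes. Mcm4 was at 4.17, 4.06, 4.00 and 4.12 CPM in Control, 4.87 and 4.70 CPM in Unloading and 7.82, 6.44 and 5.10 CPM in Reloading, and rose 1.57-fold against Control (adjusted p = 0.00312) but missed the threshold against Unloading (log2 0.42, adjusted p = 0.0703). Mcm2 was at 12.3, 10.2, 9.86 and 10.1 CPM in Control, 7.34 and 9.84 CPM in Unloading and 13.3, 12.1 and 12.3 CPM in Reloading, and rose 1.45-fold against Unloading (adjusted p = 0.00923). Mcm3 was at 9.36, 7.79, 7.72 and 7.55 CPM in Control, 6.44 and 6.45 CPM in Unloading and 12.3, 7.52 and 8.68 CPM in Reloading. For Mcm2 and Mcm3 the Reloading values overlapped those of Control. Mcm3 rose 1.47-fold against Unloading (adjusted p = 0.0283), and without Reloading 1 its log2 fold change was 0.33 (adjusted p = 0.124). Mcm7 had means of 10.8 ± 1.04 CPM in Control, 12.3 ± 1.91 in Unloading and 10.5 ± 1.40 in Reloading (n = 4, 2 and 3, SD). Its log2 fold change against Unloading was -0.22 (adjusted p = 0.241).

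Of the factors that start the loaded helicase, the members Cdc45 and Gins1 did not pass the threshold. Gins3, which is not a member, is given with the other replication genes below. Cdc45 had means of 2.40 ± 0.373, 3.46 ± 0.406 and 2.80 ± 0.314 CPM in Control, Unloading and Reloading (n = 4, 2 and 3, SD). Gins1, a subunit of the GINS complex, had means of 1.65 ± 0.447, 1.22 ± 0.133 and 1.11 ± 0.133 CPM in the same order. Their adjusted p values against Unloading were 0.277 and 0.753.

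Of the genes for nucleotide supply and the clamp, Pcna, the sliding clamp of the DNA polymerases, rose the most evenly. It was at 19.5, 19.4, 17.7 and 20.4 CPM in Control, 21.0 and 18.8 CPM in Unloading and 28.3, 28.1 and 27.6 CPM in Reloading, with no overlap. It rose 1.41-fold against Unloading (log2 0.49, SE 0.10, adjusted p = 0.00118) and 1.45-fold against Control (adjusted p = 9.73e-05). Rrm1 (chr7:102441695-102469771), the large subunit of ribonucleotide reductase, was at 32.7, 37.4, 32.8 and 38.5 CPM in Control, 36.8 and 35.2 CPM in Unloading and 25.8, 28.6 and 26.5 CPM in Reloading. All Reloading libraries were thus below the rest, and Rrm1 fell by 0.41 on the log2 scale against Unloading (adjusted p = 0.00308) and by 0.39 against Control (adjusted p = 0.00126). Relative to library totals the values were -0.17 (adjusted p = 0.161) and -0.15 (adjusted p = 0.134).

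The small subunit of the reductase, Rrm2, which in cycling cells rises in S phase, had means of 0.901 ± 0.21 CPM in Control, 1.07 ± 0.345 in Unloading and 1.06 ± 0.0189 in Reloading (n = 4, 2 and 3, SD) and an adjusted p of 0.942 against Unloading. Tk1, the thymidine kinase of S phase, had means of 8.39 ± 1.42, 7.70 ± 0.539 and 6.62 ± 0.289 CPM in the same order and passed no threshold. Tyms, thymidylate synthase, had few reads, with 3, 5, 3 and 4 read pairs in Control, 6 and 14 in Unloading and 19, 15 and 11 in Reloading. It rose 3.33-fold against Control (log2 1.74, SE 0.41, adjusted p = 0.0031) and had an adjusted p of 0.144 against Unloading, where Unloading 2 at 0.765 CPM lay above Reloading 3 at 0.728 CPM. Tyms too passed the filter through Reloading libraries only.

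**Figure D3:**
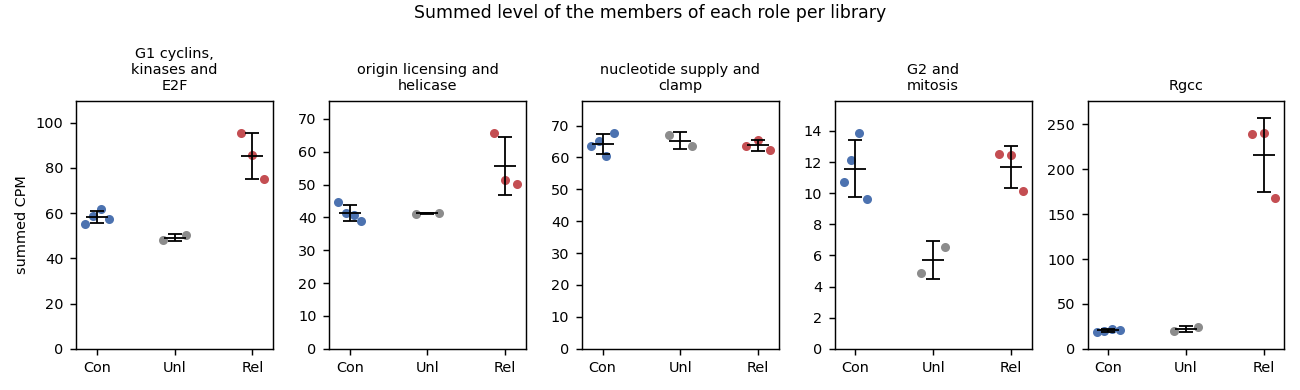
Summed CPM of the members of each role per library (Con, Control; Unl, Unloading; Rel, Reloading), with the mean and SD of each group, each panel on its own linear axis from 0. G1 members sum to between 75.1 and 95.4 CPM in Reloading and at most 61.7 CPM elsewhere, while nucleotide supply and clamp members sum to between 60.4 and 67.6 CPM in all libraries.

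Summed over roles, the G1 members were at 58.4 ± 2.66 CPM in Control, 49.2 ± 1.38 in Unloading and 85.4 ± 10.2 in Reloading (n = 4, 2 and 3, SD). The licensing members summed to 41.5 ± 2.44, 41.3 ± 0.228 and 55.7 ± 8.69 CPM, and the nucleotide and clamp members to 64.2 ± 3.03, 65.3 ± 2.62 and 63.7 ± 1.64 CPM. In the last of these sums Pcna and Rrm1 changed in opposite directions, and by library totals it lay between 68.6 and 73.8 CPM in Reloading and between 57.5 and 63.6 CPM elsewhere. The 14 mitosis members summed to 11.6 ± 1.84, 5.71 ± 1.20 and 11.7 ± 1.35 CPM, with Reloading inside the Control range and Unloading below both, and Aurka was the largest term. The sum over all 40 members was 196 ± 2.61, 183 ± 3.57 and 432 ± 58.8 CPM, and without Rgcc 175 ± 1.81, 161 ± 0.198 and 216 ± 19.9 CPM. These sums are descriptions and weigh abundant members most.

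Genes of G2 and mitosis had the fewest reads. Of the 14 members, 12 had few counts, meaning a median below 10 read pairs over the 9 libraries or failure of the filter, and 9 were not tested. Of the 5 tested, 3 rose against Unloading. Against Control 0 rose and 1 fell, beside 22.1% and 21.3% of all tested genes. Top2a and Ccna2 among the 5 passed the filter through Reloading libraries only, and without them 2 of 3 rose against Unloading, beside 18.5% of all tested genes. Among those that rose, Mki67 reached the filter's cutoff in 3 Reloading libraries, 1 Control library and 0 Unloading libraries, and so depended on Reloading too. Mki67, which encodes the proliferation marker Ki-67, had 2, 6, 14 and 6 read pairs in Control, 7 and 5 in Unloading and 17, 13 and 16 in Reloading. In CPM this was 0.226, 0.497, 1.00 and 0.515 in Control, 0.524 and 0.273 in Unloading and 1.37, 0.940 and 1.06 in Reloading, so that Reloading lay above Unloading and overlapped Control 3. It rose 2.87-fold against Unloading (log2 1.52, SE 0.50, adjusted p = 0.0258) and differed by 0.90 on the log2 scale from Control (adjusted p = 0.0781). The first call was lost in 6 of 18 alternatives, with DESeq2 (adjusted p = 0.0733), with a replicate block by title or description numbers (adjusted p = 0.0784 and 0.119), without Reloading 1 (adjusted p = 0.0653), without both libraries with skin transcripts (adjusted p = 0.0715) and without Unloading 2 (log2 1.07, adjusted p = 0.242).

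Top2a, the topoisomerase that untangles chromosomes before they part, had 4, 7, 8 and 7 read pairs in Control, 2 and 3 in Unloading and 19, 13 and 9 in Reloading. Unloading at 0.150 and 0.164 CPM was below all other libraries, and Reloading at 1.53, 0.940 and 0.596 CPM overlapped Control at 0.451 to 0.601 CPM. The change was 6.05-fold against Unloading (log2 2.60, SE 0.56, adjusted p = 0.00204), and the log2 fold changes were -1.76 in Unloading against Control (adjusted p = 0.0761) and 0.84 in Reloading against Control (adjusted p = 0.0864). Top2a was tested because Reloading libraries alone reached the filter's cutoff. Prc1, which bundles the microtubules of the central spindle, had 10, 12, 20 and 21 read pairs in Control, 13 and 19 in Unloading and 19, 24 and 35 in Reloading. It rose 1.85-fold against Unloading (adjusted p = 0.0381), a call lost in 8 of 18 alternatives. Ccna2, cyclin A2 of S phase and G2, had 2, 5, 4 and 4 read pairs in Control, 6 and 7 in Unloading and 9, 12 and 6 in Reloading, with an adjusted p of 0.289 against Unloading and 0.0733 against Control.

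Aurka (chr2:172356190-172370535), the Aurora kinase of centrosomes, had the most reads of the mitosis members and, unlike the other tested ones, was lower in Reloading than in Control. It was at 6.43, 7.63, 9.43 and 5.75 CPM in Control, 1.87 and 3.66 CPM in Unloading and 4.67, 5.13 and 3.77 CPM in Reloading. Both other groups lay below every Control library. Aurka was the member that fell in Unloading against Control, by 1.37 on the log2 scale (SE 0.25, adjusted p = 0.00447), and without Unloading 1 the value was -1.01 (adjusted p = 0.10). In Reloading it was also lower than in Control (log2 -0.71, adjusted p = 0.0129), and against Unloading the log2 fold change was 0.66 (adjusted p = 0.0686). By library totals the value against Control was -0.47 (adjusted p = 0.08).

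The 9 untested members of this role had at most 12 read pairs in any library. Ccnb1, a B-type cyclin of mitosis, had 1, 1, 2 and 1 read pairs in Control, 1 and 1 in Unloading and 2, 1 and 1 in Reloading. Ccnb2, the other B-type cyclin here, had 2, 2, 2 and 1 in Control, 3 and 3 in Unloading and 2, 5 and 7 in Reloading. Cdk1, their kinase, whose promoter window is printed above, had 3, 1, 0 and 0 in Control, 1 and 3 in Unloading and 3, 5 and 2 in Reloading. These levels could not be told apart at this depth. Cdc20, the activator of the anaphase-promoting complex, had 1, 5, 1 and 3 read pairs in Control, 1 and 1 in Unloading and 6, 4 and 5 in Reloading. Birc5, survivin, had 5, 1, 2 and 0 in Control, 0 and 0 in Unloading and 4, 4 and 2 in Reloading, and the 0 counts allow up to 3 read pairs, or 0.224 and 0.164 CPM, in the Unloading libraries.

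Bub1 of the spindle checkpoint had 0, 0, 2 and 0 read pairs in Control, 0 and 1 in Unloading and 2, 1 and 3 in Reloading. Aurkb, the Aurora kinase of the chromosomal passenger complex, had 1, 1, 2 and 2 in Control, 0 and 2 in Unloading and 2, 6 and 2 in Reloading. Plk1, a Polo-like kinase, had 1, 1, 0 and 0 in Control, 1 and 3 in Unloading and 4, 5 and 3 in Reloading. For all of these the groups differed by a few read pairs. Kif11, a spindle motor, had 6, 12, 5 and 0 in Control, 5 and 5 in Unloading and 8, 8 and 5 in Reloading, with Control spanning the other groups.

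Summed over the 12 mitosis members with few counts, the libraries held 28, 42, 42 and 24 read pairs in Control, 27 and 34 in Unloading and 78, 77 and 61 in Reloading. In CPM these sums were 2.92 ± 0.610 in Control, 1.94 ± 0.115 in Unloading and 5.29 ± 1.14 in Reloading (n = 4, 2 and 3, SD), and every Reloading library was above all others. Over the 9 untested members the sums were 1.49 ± 0.762, 0.967 ± 0.0989 and 2.48 ± 0.441 CPM, where Control 1 at 2.25 CPM lay above Reloading 3 at 1.98 CPM. No test was made of these sums.

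**Figure D4:**
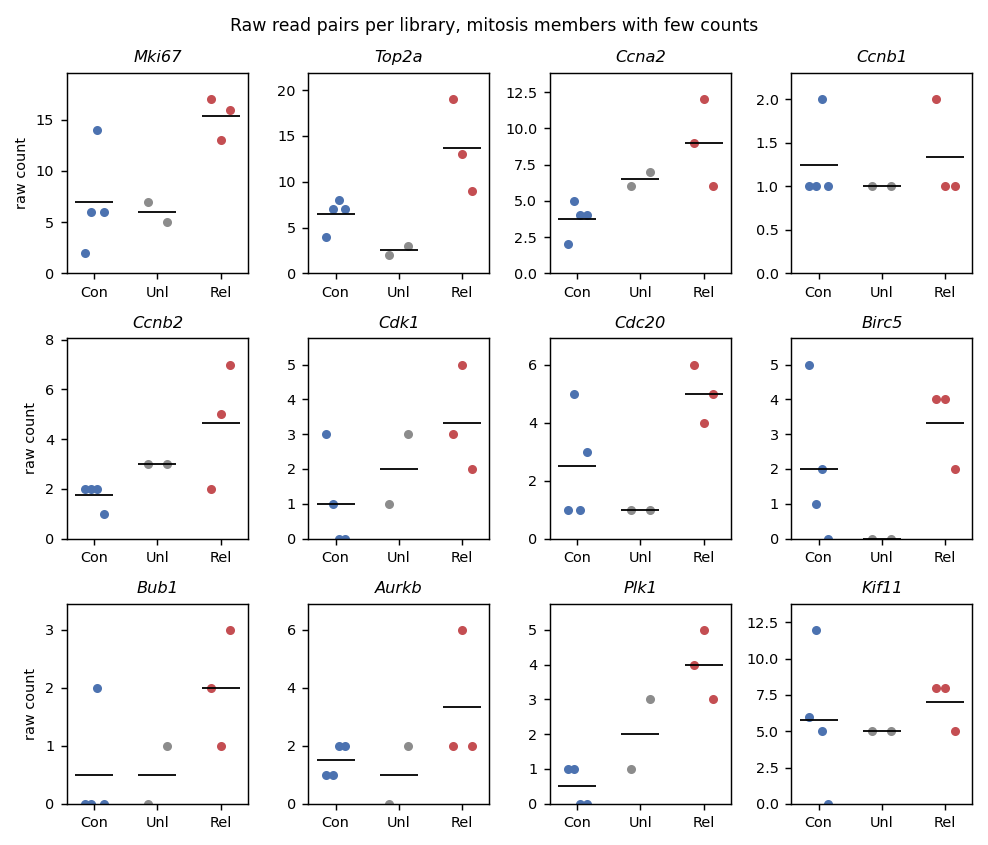
Raw read pairs per library of the 12 mitosis members with few counts (Con, Control; Unl, Unloading; Rel, Reloading), with a line at the mean of each group and a separate linear axis from 0 in each panel. No panel exceeds 19 read pairs, and Birc5 is at 0 in both Unloading libraries.

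Rgcc (chr14:79288756-79301645, ENSMUSG00000022018), a regulator of the cell cycle that binds CDK1 and is induced by complement and in hypoxic endothelium, is a gene the study names for Reloading on these same samples. It was at 18.2, 20.1, 21.8 and 21.4 CPM in Control, 19.3 and 24.1 CPM in Unloading and 239, 240 and 168 CPM in Reloading. Control and Unloading overlapped, and Reloading lay far above. It rose 9.88-fold against Unloading (log2 3.30, SE 0.16, adjusted p = 2.47e-09) and 10.5-fold against Control (log2 3.40, adjusted p = 5.14e-11). Its promoter, printed above, held none of the 4 motifs searched.

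Per length, Rgcc had the highest level of the 40 members, at 22.2 ± 1.80 CPM per kilobase of exon in Control, 23.6 ± 3.68 in Unloading and 235 ± 45.1 in Reloading. Pcna followed at 8.03 ± 0.469, 8.30 ± 0.659 and 11.7 ± 0.157 CPM per kilobase and Cdk4 at 5.80 ± 0.119, 5.30 ± 0.455 and 7.25 ± 0.150 CPM per kilobase. Ccnd1 moved from 0.688 ± 0.162 in Control and 0.358 ± 0.101 in Unloading to 3.74 ± 0.945 CPM per kilobase in Reloading. Mki67 was at 0.0556 ± 0.0320, 0.0396 ± 0.0176 and 0.112 ± 0.0221 CPM per kilobase, and Ccnb1 and Bub1 were near the bottom of the list.

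Within Reloading the libraries were not level. Of the 16 members that rose against Unloading, 12 were highest in Reloading 1, 3 in Reloading 2 and 1 in Reloading 3. The same count was not made over all tested genes, so this order is not shown to be particular to the members. Reloading 1 is also the Reloading library with skin transcripts, and Control 2 is the Control library with them. The part of skin in these values was not tested. Without Reloading 1 and Control 2, 13 members rose and 2 fell against Unloading, and 11 rose and 3 fell against Control. In that fit 4628 of 14765 tested genes were called against Unloading, 2281 of them higher. Against Control 5082 were called, 2523 of them higher. Mcm3 (log2 0.33, adjusted p = 0.144) and Mki67 (log2 1.37, adjusted p = 0.0715) then missed the threshold against Unloading, and Top2a did not pass the filter. Ccnd1 without these libraries had a log2 fold change of 3.16 (adjusted p = 5.10e-07) against Unloading.

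Other genes of DNA replication, 43 by a list taken from general knowledge, moved both ways. Of 35 tested, 3 rose and 5 fell against Unloading, beside 18.5% and 19% of all tested genes, with a median log2 fold change of 0.04. Dtl, which targets CDT1 for destruction, had 0.886, 1.08 and 0.861 CPM in Reloading and at most 0.226 CPM elsewhere. It rose by 3.71 on the log2 scale (SE 0.62, adjusted p = 0.000315). Outside Reloading Dtl lay below the filter's cutoff of 0.784 CPM of library totals, so it was tested because it was high there. Uhrf1, which maintains DNA methylation at forks, and Gins3 rose by 1.79 and 1.09 on the log2 scale. The CDT1 inhibitor Gmnn, geminin, was at 7.78, 6.63, 5.86 and 8.67 CPM in Control, 3.44 and 5.52 CPM in Unloading and 2.58, 1.81 and 2.65 CPM in Reloading, and fell by 0.96 against Unloading (adjusted p = 0.00705). Rpa1 of the single-strand binding complex fell by 0.33. Against Control 6 rose and 5 fell, beside 22.1% and 21.3% of all tested genes. Among them were Dtl (log2 2.78), the origin-firing kinase gene Cdc7 (1.69) and the polymerase subunit gene Pola1 (0.87), and Gmnn (-1.61) and Dut (-0.76).

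The list of other G2 and mitosis genes held 58 genes, of which 32 did not pass the filter. Of 26 tested, 3 rose and 4 fell against Unloading, beside 18.5% and 19% of all tested genes, with a median log2 fold change of 0.08. Ccnf, cyclin F, was at 8.06, 1.95 and 3.58 CPM in Reloading against 0.414 to 1.12 CPM in Control and 0.299 and 0.273 CPM in Unloading, and rose by 3.93 on the log2 scale (SE 0.63, adjusted p = 0.000202). Cenpa, the centromeric histone, and Kif18a, a kinesin, rose by 1.09 and 1.00 on the log2 scale. Tpx2, which activates the Aurora A kinase, was at 7.11 and 7.92 CPM in Unloading, above all Control libraries at 3.61 to 4.86 CPM and all Reloading libraries at 2.66 to 3.77 CPM, and fell by 1.20 against Unloading (adjusted p = 0.000122). Anln, anillin, fell by 1.09 and Pttg1, securin, fell by 0.46 on the log2 scale. Against Control, Ccnf (log2 2.52), Cenpa (0.87) and Cks1b (0.83) rose, and Spc24 (-1.30) and Pttg1 (-0.50) fell. In that comparison 22.1% of all tested genes were called higher and 21.3% lower.

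Of 21 tested CDK inhibitors, pocket proteins and other E2F genes, 3 rose and 9 fell against Unloading, with a median log2 fold change of -0.34. Of all tested genes, 18.5% rose and 19% fell there. The genes that rose were Btg2, an antiproliferative gene (log2 2.02), Lin37 of the DREAM complex (1.26) and E2f4 (0.77). The largest falls were in Tfdp2 (-1.02), an E2F partner, Cdkn2d (-0.66), an inhibitor of CDK4 and CDK6, and Lin52 (-0.61). The CDK inhibitor gene Cdkn1b, p27, was at 59.5, 51.0, 55.0 and 56.4 CPM in Control, 68.7 and 64.4 CPM in Unloading and 47.6, 45.5 and 46.2 CPM in Reloading and fell by 0.52 on the log2 scale (adjusted p = 0.000169). Rbl2, the pocket protein p130 of quiescent cells, fell by 0.59 and Rb1 fell by 0.35 on the log2 scale. Against Control 4 rose and 8 fell, beside 22.1% and 21.3% of all tested genes. These were led by Cdkn1a (log2 1.75), Btg2 (1.68) and Lin37 (1.31) and by Lin52 (-0.68), Tfdp2 (-0.66) and Cdkn2d (-0.62). Cdkn1a, p21, was at 6.65, 8.04, 6.64 and 12.8 CPM in Control, 26.3 and 19.9 CPM in Unloading and 33.5, 25.5 and 27.4 CPM in Reloading, and had risen by 1.43 on the log2 scale already in Unloading (adjusted p = 0.000928).

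**Figure D5:**
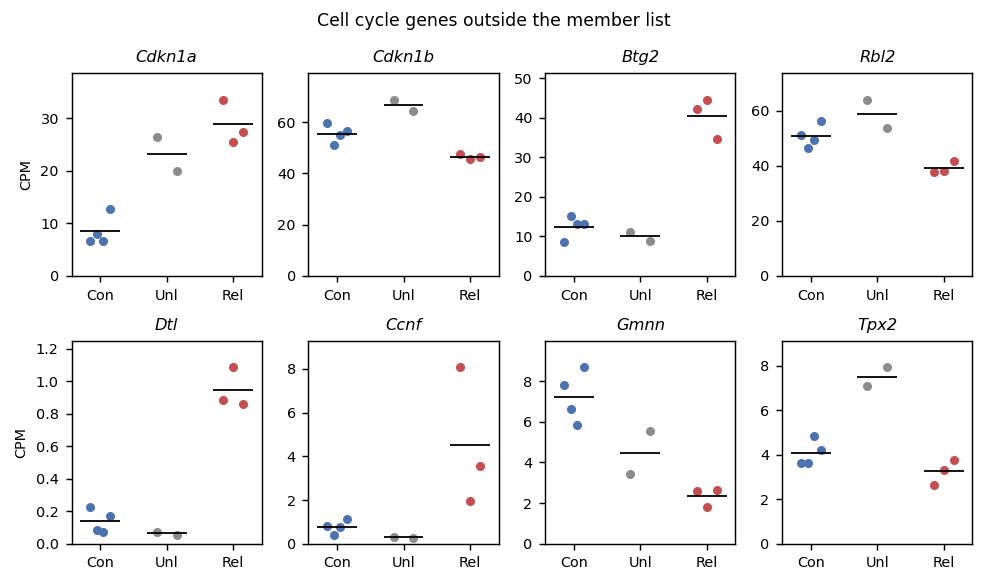
CPM per library of 8 cell cycle genes outside the 40 (Con, Control; Unl, Unloading; Rel, Reloading), with a line at the mean of each group and a linear axis from 0 in each panel. Cdkn1a lies at 6.64 to 12.8 CPM in Control and at 19.9 CPM or more in the other groups, and Dtl and Ccnf are highest in the 3 Reloading libraries. Dtl was tested because Reloading libraries alone reached the filter's cutoff.

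Markers of other cell types of the muscle were read in the same libraries, and 18.5% of all tested genes rose and 19% fell against Unloading. Of 13 tested macrophage and monocyte markers, 12 rose, and the list summed to between 88.8 and 108 CPM in Control, 90.9 and 91.7 CPM in Unloading and between 177 and 201 CPM in Reloading. Cd68, a macrophage lysosomal gene, rose 15.3-fold. Of 12 endothelium markers, 11 rose, and the sums were between 270 and 314 CPM in Control, 276 and 268 CPM in Unloading and between 451 and 539 CPM in Reloading. Of 12 tested satellite cell and myoblast markers 6 rose, among them Myod1 (log2 1.30) and Myog (1.40), while Pax7, which marks satellite cells, was at 3.67 ± 0.653, 3.45 ± 0.941 and 3.07 ± 0.898 CPM in Control, Unloading and Reloading (n = 4, 2 and 3, SD). Fibroblast markers had 5 of 10 higher and 2 lower, and their sums were between 555 and 755 CPM in Control and between 731 and 899 CPM in Reloading.

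Of 12 neutrophil and marrow markers 9 did not pass the filter and the list summed to at most 8.46 CPM in any library. Of the 12 lymphocyte markers 11 did not pass, and the list summed to between 61.6 and 69.9 CPM in Control, 36.1 and 60.6 CPM in Unloading and between 25.2 and 38.3 CPM in Reloading. The 1 tested marker was called lower in Reloading, with log2 fold changes of -0.59 against Unloading and -0.99 against Control. With 11 markers below the filter, these sums do not describe the list as a whole. The 7 erythroid markers summed to between 52.1 and 173 CPM, with overlap between all groups. Of 13 tested skin markers 1 fell against Unloading, with the high sums in Control 2 and Reloading 1 given above. Fibre markers had 8 of 12 lower against Unloading, beside 19% of all tested genes, with sums of at least 194282 CPM in Control and Unloading and at most 157395 CPM in Reloading. No marker of these lists was at 0 in all libraries, and the part of these cells in the results was not tested.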

How the data were processed

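Polyadenylated RNA of gastrocnemius muscle was sequenced in 4 Control, 2 Unloading and 3 Reloading libraries, grouped by the labels. The authors aligned the reads with STAR 2.7.3a to GRCm38 and assigned read pairs to genes, ignoring strand, with featureCounts 2.0.3 on the Ensembl release 102 annotation, per the file headers and the labels. The deposited table holds these raw counts and each gene's summed exon length in bases. The methods describe single reads, whereas the table counts read pairs. The authors also deposited DESeq2 tables of fold changes and p-values, of which the gene symbols alone were used.

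The test was that of edgeR 4.0.16 in R 4.3.3. filterByExpr (minimum count 10, minimum total 15) kept 14851 genes, libraries were scaled by TMM, and all 9 libraries were fitted together by quasi-likelihood, with group the single term. The F-test is two-sided, the Benjamini-Hochberg adjustment ran over all tested genes, and the SE was derived from the F statistic. The procedure was tested on simulated data. Replicate pairs differed by more than sampling noise, so no library was counted as a copy of another.

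All 40 members are named. Of other cell cycle lists, up to 3 higher and 3 lower genes with the largest change past the threshold are named for each comparison of Reloading, and a few more (Cdkn1b, Rbl2, Rb1, Cdkn1a in Unloading) were chosen after their values were seen. A gene that the rule named is not reported here. Promoters were shown for up to 3 members in each direction with the largest changes and a median of at least 10 read pairs. The members and lists were chosen with earlier results of these data known. Of 274 listed symbols, 273 matched. Alternatives were DESeq2 1.42.0, other scalings, no filter, a robust fit, the groups compared alone, replicate blocks and leaving out libraries. Intervals for counts of 0 cover counting error only.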

Additional observations from a re-analysis of the deposited data

Results flagged for a closer look

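In the Control group of 4 libraries, 7 of the 40 members had a library whose gap to the nearest other library took up most of the group's range, past the 95% limit of Dixon's ratio, and chance gives this in about 1 in 20 groups. Control 1 was highest for Mcm2 at 12.3 CPM (the others at 9.86 to 10.2 CPM) and for Mcm3 at 9.36 CPM (the others at 7.55 to 7.79 CPM), and was lowest for Cdt1 at 0.226 CPM, or 2 read pairs. Control 4 was lowest for Cdk4 at 18.3 CPM, with the others at 19.0 to 19.1 CPM. Control 2 was highest for Cdc6 at 0.497 CPM, or 6 read pairs. Control 3 was highest for Rrm2 at 1.21 CPM and for Bub1 at 0.143 CPM, which is 2 read pairs where the other Control libraries had 0.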

How the results depend on the processing

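No member called in a comparison changed direction under any alternative run. In Reloading against Unloading the called members numbered between 13 and 20 when a library was left out (12 to 18 higher, 1 to 2 lower), and by library totals 20 were higher and 0 lower. Against Control, leaving out a library gave 14 to 17, and library totals gave 21 higher and 1 lower. By library totals 82.8% of all called genes were higher against Unloading and 80.2% against Control. When a Control or Reloading library was left out, 4563 to 5654 of all tested genes were called in Reloading against Unloading. The same fits called 5267 to 6250 in Reloading against Control and 949 to 1518 in Unloading against Control. In Unloading against Control, leaving out a library gave 0 to 2 calls, all lower, and 2 lower were found without the filter, with DESeq2 and in the fit of the 2 groups alone, the added call being Ccnd1. Without Unloading 1 the count was 0 by edgeR. Among the calls lost without 1 library were Ccnd3 (0.43, adjusted p = 0.0568), Cdk6 (0.95, adjusted p = 0.0965) and Ccne2 (-0.48, adjusted p = 0.215) without Unloading 2, and Mcm2 (0.34, adjusted p = 0.127) without Unloading 1, in Reloading against Unloading, and Aurka (-0.58, adjusted p = 0.0621) without Reloading 3 in Reloading against Control. Prc1 and Cdk6 were lost most often, and the cause was not tested. Without the filter, Birc5 passed the threshold against Unloading (log2 4.74, adjusted p = 0.024) on 0 read pairs in both Unloading libraries, and Plk1 passed it against Control (log2 2.52, adjusted p = 0.0496) on at most 5 read pairs in any library. The summed level over all members was 185 CPM in Control and 172 CPM in Unloading by library totals (483 CPM in Reloading), and 61.3, 59.4 and 285 CPM per kilobase in Control, Unloading and Reloading. Replicate numbers of the titles did not pair the samples (correlations of deviations -0.20 to 0.08 over 7 pairs), and those of the descriptions were over 0.1 in 3 of 6 pairs. The highest, 0.36, was between Control 2 and Reloading 1, the libraries with skin transcripts, which carry the same description number. The part of skin in that correlation was not tested. A replicate block by title numbers gave 17 members in Reloading against Unloading, 2 in Unloading against Control and 15 in Reloading against Control, and a block by description numbers gave 16, 2 and 15. Of all 14851 tested genes the title block called 5108, 1042 and 5705 in the same order, and the description block 4902, 1479 and 6632. Depth limits the 17 members with few counts, which had at most 32 read pairs in any library.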
